A study of Bos indicus with 5 samples.

Results

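Transcripts of the GDNF (glial cell line-derived neurotrophic factor) family were examined in the ampulla, the wide part of the oviduct next to the ovary. The 8 members were taken by symbol from the 24616 genes of the deposited table. They are the ligands GDNF, NRTN (neurturin) and ARTN (artemin), the co-receptors GFRA1, GFRA2, GFRA3 and GFRA4, and the receptor kinase RET. The family was chosen by the normalized read counts of GFRA3, which were higher in SF/SCL than in LF/LCL in these same libraries. The GFRA3 difference is therefore given as a description, with no test, while the other 7 members were taken by name.

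Animals were multiparous, healthy Nelore cows (Bos indicus), whose oestrous cycles were controlled with hormones. Every cow was pre-synchronized with 0.5 mg of a prostaglandin F2α analog (PGF) and 1 µg of the GnRH agonist buserelin, 7 days apart. Each received a progesterone device (1 g) with 2 mg of estradiol benzoate 10 days before ovulation was induced, PGF at device removal and again some hours later, and a GnRH agonist to induce ovulation. In LF/LCL (large follicle, large corpus luteum; 2 libraries) the device came out 42 h before that GnRH injection and PGF was also given at device insertion. In SF/SCL (small follicle, small corpus luteum; 3 libraries) the device came out 30 h before it. Tissue of the oviduct on the side of the corpus luteum was taken on day 4, through the full thickness of the wall. The sequenced cows were the highest ranked of LF/LCL and the lowest ranked of SF/SCL by follicle size, corpus luteum area, estradiol and progesterone, so the groups stand for the ends of the ranking. Each library came from a different cow.

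As background, GDNF family ligands act through a receptor of separate parts. A ligand first binds a GFRA protein, which is held on the outer face of the membrane by a lipid anchor, and the pair then brings together RET molecules, whose kinase domains pass the signal on. GDNF is best known to bind GFRA1, neurturin GFRA2, artemin GFRA3 and persephin GFRA4. The family is known for the growth and survival of sympathetic, sensory and enteric neurons and for branching of the ureteric bud of the kidney.

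The values are normalized read counts, that is, reads of a gene divided by a size factor for each library. Between 13418278 and 19592174 reads per library were assigned to genes. OVGP1, the oviduct glycoprotein made by secretory cells, had 129646 ± 17631 normalized reads (n = 2, SD) in LF/LCL cows and 135618 ± 12627 (SD, n = 3) in SF/SCL cows, and FOXJ1, the master regulator of motile cilia, had 8927 ± 630.7 and 11514 ± 1062. The labelled tissue thus carried its defining markers in both groups. As this is whole tissue, fewer cells of a type and less RNA per cell cannot be told apart.

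GFRA3 and RET lay in opposite directions, each without overlap between the groups, as were 30.1% of all genes tested. GFRA3 was the gene that chose the family, and RET did not reach an adjusted p under 0.05 (limma adjusted p = 0.329, DESeq2 adjusted p = 0.108). GFRA3, the artemin co-receptor, had a mean in SF/SCL 19.96 times that in LF/LCL, and RET, the kinase that the co-receptors serve, had a mean in LF/LCL 3.97 times that in SF/SCL. The values of NRTN, GFRA4, GFRA2 and GFRA1 overlapped between the groups, and GDNF and ARTN were near the detection limit.

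**Figure D1:**
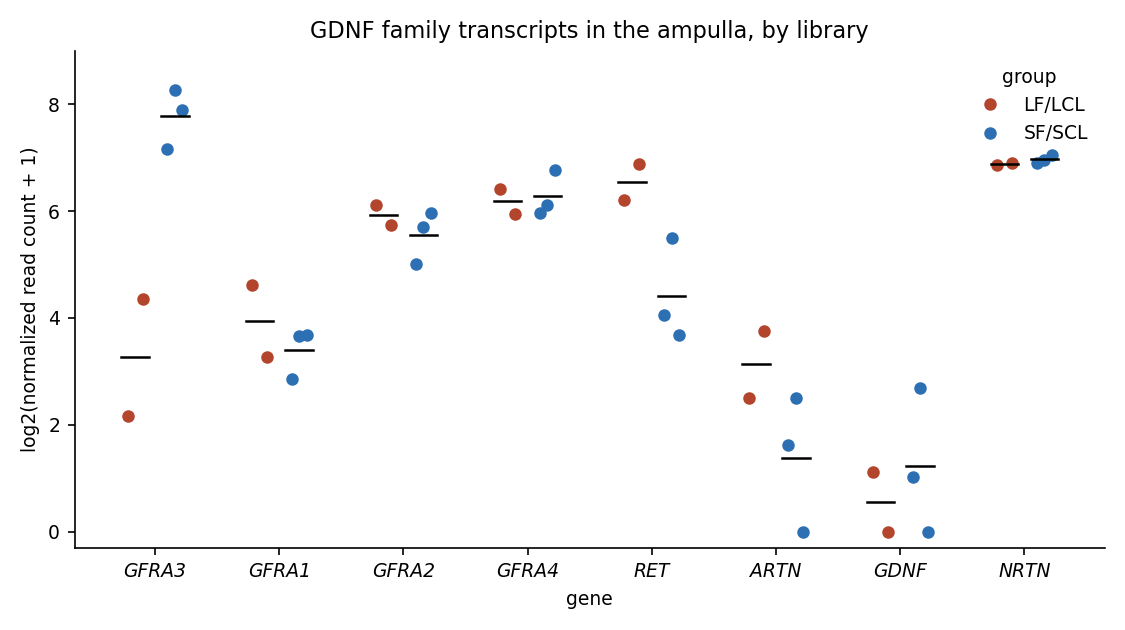
Expression of the 8 GDNF family genes, as log2(normalized read count + 1) on the vertical axis, with 1 point per library, LF/LCL in red (2 libraries) and SF/SCL in blue (3 libraries) and the black bar at the group mean of the log2 values. GFRA3 lies higher in all 3 SF/SCL libraries and RET higher in both LF/LCL libraries, while the points of NRTN lie almost on one line.

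GFRA3 had 3.52 and 19.4 normalized reads in LF/LCL replicates 1 and 2. In SF/SCL it had 142.4, 305.4 and 237.2 normalized reads in replicates 1, 2 and 3. The groups did not overlap, and the lowest SF/SCL library was 7.36 times the highest LF/LCL library. The means were 11.4 ± 11.2 (SD, n = 2) and 228.3 ± 81.9 (SD, n = 3).

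The LF/LCL values rest on few reads, 3 in replicate 1 (exact Poisson 95% interval 0.619 to 8.77 reads) and 20 in replicate 2 (12.2 to 30.9 reads). Such intervals cover counting error only. Scaled to normalized reads, the intervals of the 5 libraries did not overlap one another, so that cows of the same group differed by more than counting error. The log2 fold change (LF/LCL over SF/SCL, on log2(value + 1)) was -4.51 ± 0.70 (SE), ranking 3 from the lowest among the 15815 genes with a mean over 5 normalized reads. It was -3.43 without LF/LCL replicate 1 and -5.60 without LF/LCL replicate 2.

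The make-up of the co-receptor reads followed GFRA3. Of all reads assigned to GFRA1, GFRA2, GFRA3 and GFRA4 in a library, GFRA3 took 1.96% in LF/LCL replicate 1 (3 of 153 reads, Wilson 95% interval 0.669 to 5.61%) and 13.7% in LF/LCL replicate 2 (20 of 146 reads, 9.05 to 20.2%). In SF/SCL it took 59.1% of 232 reads (52.6 to 65.2%), 69.9% of 562 reads (66.0 to 73.6%) and 56.7% of 390 reads (51.7 to 61.5%). These shares do not depend on the size factors, and they are not corrected for transcript length.

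The GFRA3 share of reads was thus lower in both LF/LCL libraries than in any SF/SCL library. The group means of its share were 7.83% ± 8.30 (SD, n = 2) and 61.9% ± 7.07 (SD, n = 3). Leaving out 1 library moved the LF/LCL value to 1.96% (without replicate 2) or 13.7% (without replicate 1), and the SF/SCL mean to between 57.9 and 64.5%. The summed level of the other co-receptors overlapped between groups, with 148.9 ± 38.2 normalized reads in LF/LCL (SD, n = 2) and 137.2 ± 41.6 in SF/SCL (SD, n = 3).

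**Figure D2:**
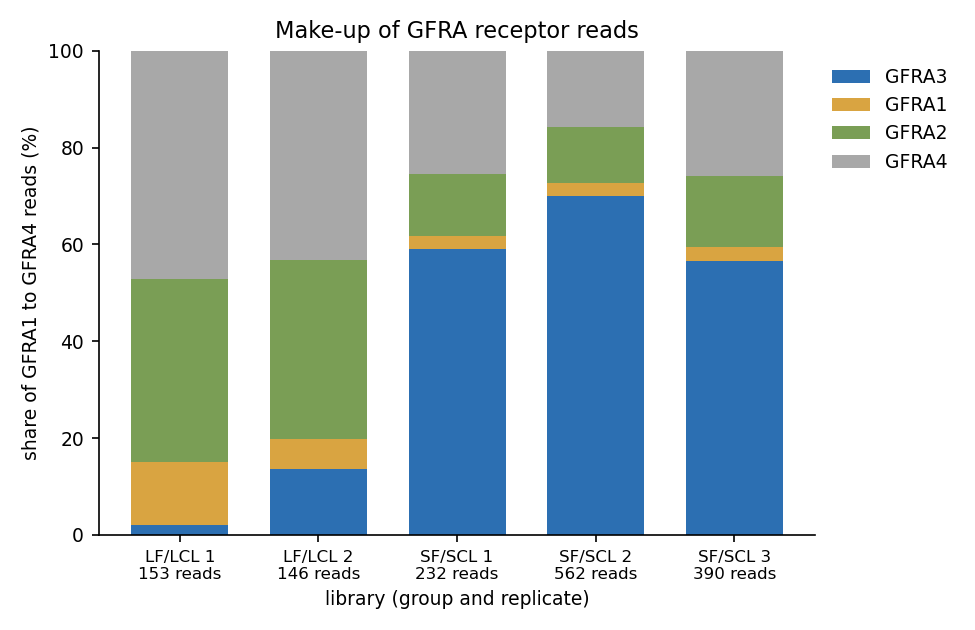
Share of each co-receptor (percent, vertical axis) among the reads assigned to GFRA1, GFRA2, GFRA3 and GFRA4 in each of the 5 libraries, with the number of these reads under each bar. GFRA3 (blue) takes 1.96 and 13.7% in LF/LCL cows and between 56.7 and 69.9% in SF/SCL cows.

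RET encodes the tyrosine kinase through which the ligand and co-receptor pairs signal. It had 72.7 and 117.1 normalized reads (62 and 121 reads) in LF/LCL replicates 1 and 2. In SF/SCL it had 15.6, 44.3 and 11.8 normalized reads (15, 57 and 11 reads) in replicates 1, 2 and 3. Both LF/LCL libraries were above all 3 SF/SCL libraries, with the lowest LF/LCL library at 1.64 times the highest SF/SCL library. SF/SCL replicate 2 was the highest of its group for RET and also for GFRA3.

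The log2 fold change of RET was 2.13 ± 0.63 (SE), with an adjusted p of 0.329 by limma over all 15815 genes tested, so that RET did not pass the threshold of 0.05. With the other tools it did not pass either, the adjusted p being 0.35 with the edgeR quasi-likelihood test, 0.116 with the edgeR exact test and 0.108 with DESeq2. Leaving out 1 library at a time kept it higher in LF/LCL, with log2 fold changes from 1.77 to 2.68 and limma adjusted p from 0.284 to 0.585.

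The ratio of RET to GFRA3 reads within a library, which likewise needs no size factor, was 20.7 and 6.05 in LF/LCL cows and 0.109, 0.145 and 0.0498 in SF/SCL cows. The ratio was thus higher in both LF/LCL libraries than in any SF/SCL library. No test was made of the ratio, as it contains GFRA3, and it is not corrected for transcript length.

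Of the 5 tested members other than GFRA3 (GFRA1, GFRA2, GFRA4, RET and NRTN), 0 had an adjusted p under 0.05 with limma. Over all genes tested it was 0%, 0 of 15815, with 1819 genes, or 11.5%, at an unadjusted p under 0.05. Of the 5 members 1, RET, had an unadjusted p under 0.05. DESeq2, which called 2.89% of all genes, called 0 of the 5. The groups did not overlap in 1 of the 5, RET again, where they did not overlap in 30.1% of all genes tested (15% with LF/LCL above and 15.1% with SF/SCL above). The counts for the family are thus near those of genes at large, and the members are described one by one.

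GFRA1, the co-receptor best known for binding GDNF, was read rarely, with 61 reads over the 5 libraries. It had 23.5 and 8.71 normalized reads in LF/LCL cows and 6.24, 11.7 and 11.8 in SF/SCL cows. LF/LCL replicate 1 was the highest of the 5 libraries, and replicate 2 lay among those of SF/SCL. The log2 fold change was 0.55 ± 0.66 (SE) with a limma adjusted p of 0.805, and it turned to -0.12 without LF/LCL replicate 1.

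GFRA2, the neurturin co-receptor, had 68.0 and 52.3 normalized reads in LF/LCL cows and 31.2, 51.3 and 61.2 in SF/SCL cows. The lowest value was SF/SCL replicate 1, and the other 4 libraries overlapped between groups. The log2 fold change was 0.36 ± 0.41 (SE) with a limma adjusted p of 0.787.

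GFRA4, the persephin co-receptor, had 84.4 and 61.0 normalized reads in LF/LCL cows and 61.3, 68.4 and 108.4 in SF/SCL cows. The log2 fold change was -0.10 ± 0.36 (SE) with a limma adjusted p of 0.948. Its sign was not fixed, being 0.13 without LF/LCL replicate 2 and 0.15 without SF/SCL replicate 3. Among the reads of GFRA1, GFRA2 and GFRA4 alone, GFRA4 held between 48.0 and 62.1% in each of the 5 libraries.

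Of the ligands, NRTN was well above the detection limit and the most even of the 6 tested members over the 5 cows. It had 116.1 and 119.1 normalized reads in LF/LCL cows and 118.5, 122.8 and 132.0 in SF/SCL cows, so that its highest library was 1.14 times its lowest. The exact Poisson intervals of its 5 libraries all overlapped. The log2 fold change was -0.08 ± 0.21 (SE) with a limma adjusted p of 0.923, and it lay between -0.11 and -0.04 when 1 library was left out.

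ARTN, the ligand best known for binding GFRA3, had 4.69 and 12.6 normalized reads in LF/LCL (4 and 13 reads). In SF/SCL it had 2.08, 4.66 and 0 normalized reads (2, 6 and 0 reads). A count of 0 in SF/SCL replicate 3 allows up to 3.22 normalized reads, taking 3 reads as the limit of a count of 0. With a mean of 4.80 over the libraries, ARTN lay below the filter of 5 and was not in the fit. The groups were separate by a margin of 1.01 times. An exact permutation test over the 5 libraries (two-sided) gave p = 0.2 (0.4 after Benjamini-Hochberg adjustment over the 2 ligands so tested). This form of the test, which doubles the smaller tail, can give no p under 0.2 with 2 against 3 libraries.

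GDNF, the founding ligand, had 1 and 0 reads in LF/LCL and 1, 7 and 0 reads in SF/SCL. Of its 9 reads in all, 7 came from SF/SCL replicate 2. The exact permutation test (two-sided), which could give no p under 0.2 here, gave p = 1. With so few reads and libraries, a difference between groups was not detectable. GFRA3 thus had many more reads in SF/SCL than in LF/LCL, while the reads of its ligand ARTN were few in every library, 13 at most.

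The related ligands and receptors of a fixed list were read next. PSPN (persephin) had 1 read in all, in SF/SCL replicate 3, and GFRAL, the GFRA-like receptor of the hindbrain, had 0 reads in each library. Of the 8 listed genes 6 were tested, 0 passed with limma and 1 had an unadjusted p under 0.05 (11.5% of all genes did). This was GAS1, a membrane-anchored protein related to the GFRA proteins, with 314.4 ± 25.0 normalized reads (n = 2, SD) in LF/LCL cows and 585.2 ± 211.3 (SD, n = 3) in SF/SCL cows, and a limma adjusted p of 0.382. Its groups did not overlap.

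NCAM1, the neural cell adhesion molecule that can bind GDNF with GFRA1 in place of RET, had 175.8 ± 58.3 normalized reads in LF/LCL cows and 66.6 ± 66.3 in SF/SCL cows, and its groups overlapped (limma adjusted p = 0.462). SDC3, a heparan sulfate proteoglycan that binds these ligands, had 266.8 ± 24.1 and 196.4 ± 35.0 (limma adjusted p = 0.483). The median log2 fold change of the 6 tested genes was 0.41, against 0.01 over all genes tested.

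The proteins that relay the RET signal were even between groups. Of the 29 listed genes 27 were tested, and 0 passed with limma or DESeq2. At an unadjusted p under 0.05 were 2 of the 27, both higher in LF/LCL, against 11.5% of all genes tested. PLCG1, a phospholipase recruited by RET, had 1529 ± 156.0 normalized reads in LF/LCL cows and 1160 ± 33.7 in SF/SCL cows (limma adjusted p = 0.308), and MAPK3, the kinase ERK1, had 1502 ± 118.5 and 1219 ± 87.5 (limma adjusted p = 0.409). All log2 fold changes of the list lay between -0.29 and 0.39, with a median of 0.08.

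Genes known to respond to RET or to dampen receptor kinase signals were read as well. Of the 18 tested, 0 passed with limma and 3 had an unadjusted p under 0.05 (11.5% of all genes did), while DESeq2 called 2 (2.89% of all genes). The groups did not overlap in 5 of the 18, against 30.1% of all genes. CXCR4, a chemokine receptor, had 484.4 ± 66.4 normalized reads in LF/LCL cows and 266.6 ± 16.8 in SF/SCL cows (limma adjusted p = 0.212, DESeq2 adjusted p = 0.00196). SPRY4, an inhibitor of receptor kinase signalling, had 820.7 ± 45.1 and 1212 ± 73.1 (limma adjusted p = 0.222, DESeq2 adjusted p = 0.00628).

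WNT11, a WNT ligand whose ureteric bud expression depends on RET, had 28.6 ± 0.63 normalized reads in LF/LCL cows and 92.0 ± 44.9 in SF/SCL cows (limma adjusted p = 0.323, DESeq2 adjusted p = 0.0642). The transcription factors ETV4 and ETV5, which act downstream of RET in the kidney, overlapped between groups. ETV4 had 414.0 and 74.5 normalized reads in LF/LCL cows and between 70.7 and 180.3 in SF/SCL cows, so that the 2 LF/LCL cows differed by more than the 3 SF/SCL cows did. The median of the list was 0.09, and it went to -0.26 without LF/LCL replicate 1 and 0.40 without LF/LCL replicate 2.

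Regulators of GDNF and RET expression known from kidney and neural crest were in part hardly read. NKX2-1, LHX1 and GREM1 had between 0 and 3 reads in any library and were not tested. Of the 11 tested, 0 passed with limma and 3 had an unadjusted p under 0.05 (11.5% of all genes did). PAX8, a paired box factor of the Müllerian and kidney epithelium, had 1241 ± 54.0 normalized reads in LF/LCL cows and 812.5 ± 124.0 in SF/SCL cows (limma adjusted p = 0.284, DESeq2 adjusted p = 0.0447). PAX2, its close relative, had 863.5 ± 121.6 and 513.2 ± 140.1 (limma adjusted p = 0.332).

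SLIT2, a secreted guidance protein that restricts the GDNF domain in the kidney, had 348.8 ± 77.2 in LF/LCL cows and 521.0 ± 103.1 in SF/SCL cows (limma adjusted p = 0.417). Without overlap were 4 of the 11 tested regulators, against 30.1% of all genes tested. LF/LCL was above in 3 of them, PAX8, PAX2 and EYA1 (named after its values were seen), and SF/SCL in 1, SLIT2. The part of these genes in the RET result was not tested. The median of the list was 0.62, and it was 0.28 without LF/LCL replicate 1 and 0.19 without SF/SCL replicate 2.

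**Figure D3:**
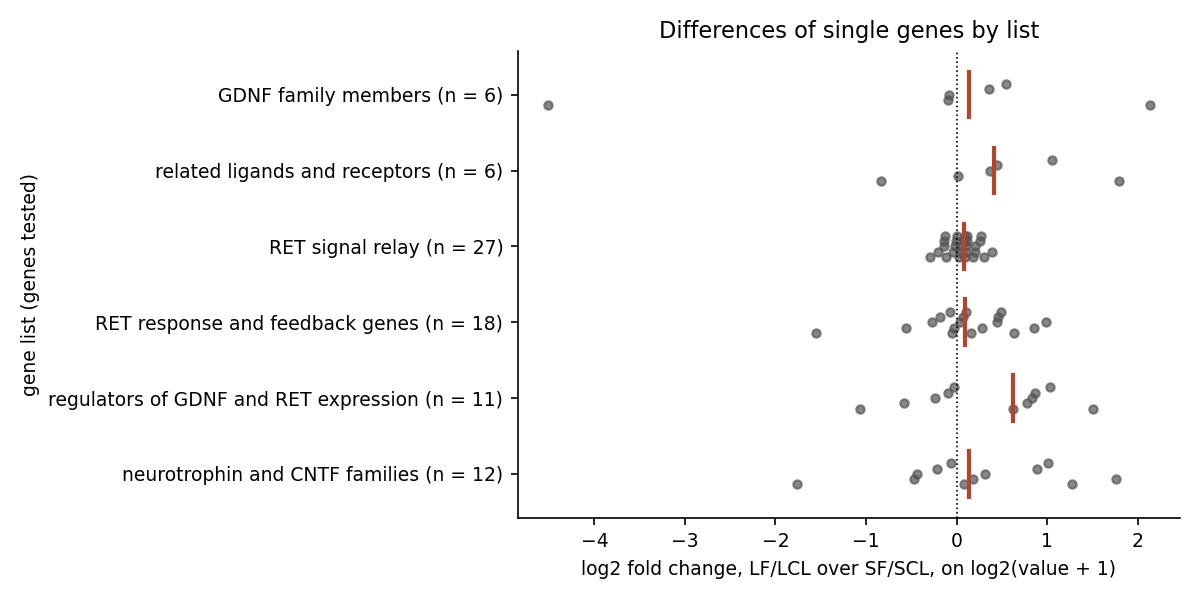
Log2 fold change of each tested gene (LF/LCL over SF/SCL, on log2(value + 1), horizontal axis) by gene list, with the list median as a red bar and the median over all 15815 genes tested as a dotted line. GFRA3 at -4.51 and RET at 2.13 are the ends of the GDNF family, while the relay genes lie between -0.29 and 0.39.

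The other neurotrophic families were read for comparison. Of 15 genes of the neurotrophin and CNTF families 12 were tested, 0 passed with limma and 1 with DESeq2 (2.89% of all genes did). This was NTRK3, the receptor kinase for neurotrophin 3, with 97.3 and 90.0 normalized reads in LF/LCL cows and 242.2, 305.4 and 442.2 in SF/SCL cows. The groups did not overlap, with a log2 fold change of -1.76 ± 0.28 (SE), a limma adjusted p of 0.182 and a DESeq2 adjusted p of 3.13e-05.

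NGFR, the low affinity neurotrophin receptor, had 16.4 and 27.1 normalized reads in LF/LCL cows and 8.32, 8.55 and 2.15 in SF/SCL cows (limma adjusted p = 0.444). CNTFR, the receptor that confers CNTF binding, had 172.6 ± 82.6 and 87.2 ± 43.4 and overlapped between groups (limma adjusted p = 0.517). Among the ligands, BDNF had 0 reads in each library and NTF3 and NTF4 at most 16.5 normalized reads, while CLCF1, a cytokine that signals through CNTFR, had between 108.4 and 238.2 and overlapped between groups. The median log2 fold change of the 12 was 0.14. No test was made of a difference between the families.

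Genes with the profile most like that of GFRA3 were ranked by the root mean square difference of their centred log2(value + 1) values over the 5 libraries, among 11951 genes with a symbol and a mean of at least 50 normalized reads. These 6 genes were chosen for likeness to GFRA3, so their differences are descriptions. The nearest was MBOAT4, the acyltransferase that octanoylates ghrelin, at 0.559 log2 units. It had 2.35 and 15.5 normalized reads in LF/LCL cows and 89.4, 126.7 and 67.6 in SF/SCL cows.

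Next came FOXRED2, a flavoprotein of the endoplasmic reticulum, at 0.651 log2 units, with 217.0 and 532.4 normalized reads in LF/LCL cows and 2221, 5519 and 3314 in SF/SCL cows. GHRL, which encodes the peptide hormone ghrelin, came after it at 0.67 log2 units, with 88.0 and 134.5 in LF/LCL cows and 745.5, 3240 and 2825 in SF/SCL cows. F5 (coagulation factor V) followed at 0.76 log2 units, GPRIN3 (a G protein-regulated inducer of neurite outgrowth) at 0.808 and KCNS3 (a modulatory potassium channel subunit) at 0.84. In all 6, as in GFRA3, LF/LCL replicate 1 was the lowest library, LF/LCL replicate 2 the next and the 3 SF/SCL libraries higher.

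**Figure D4:**
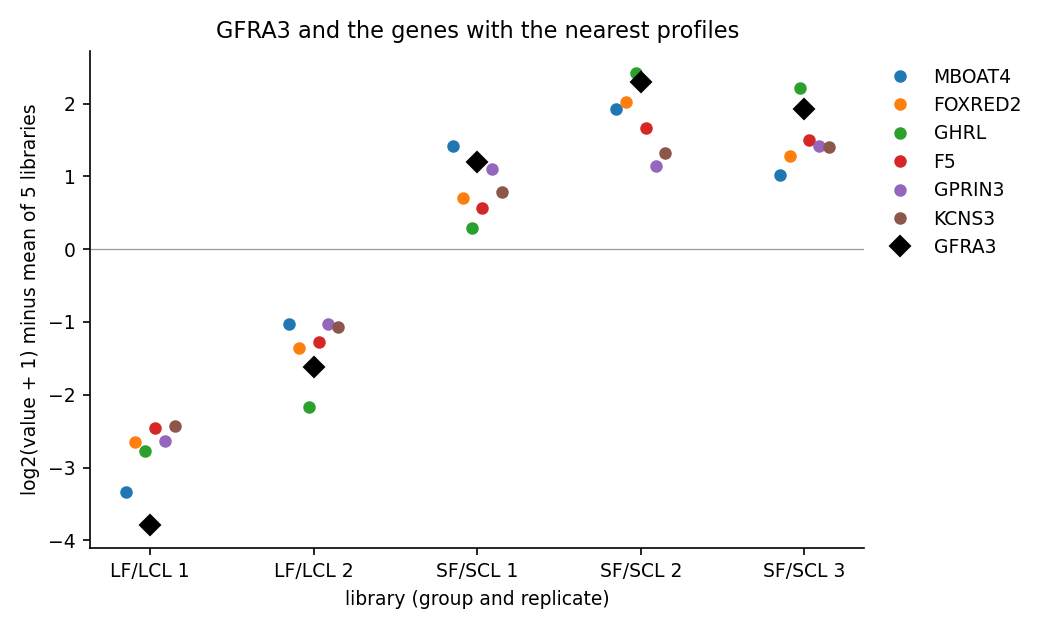
Log2(value + 1) minus its mean over the 5 libraries (vertical axis) for GFRA3 (black diamonds) and the 6 genes with the nearest profiles (coloured points), by library on the horizontal axis. For all 7 genes both LF/LCL libraries lie below 0, replicate 1 lowest, and the 3 SF/SCL libraries lie above 0.

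Genes next to GFRA3 and RET in a RefSeq cattle assembly (NIAB-ARS_B.indTharparkar_mat_pri_1.0) were read as well. CDC23 and CDC25C, both cell cycle genes, flank GFRA3. CDC23 had 479.1 ± 67.1 normalized reads in LF/LCL cows and 436.6 ± 82.3 in SF/SCL cows, and CDC25C had 22.5 ± 3.04 and 10.8 ± 2.85, the opposite direction to GFRA3 (limma adjusted p = 0.839 and 0.504). BMS1 and CSGALNACT2 flank RET, with log2 fold changes of -0.00 ± 0.11 and 0.13 ± 0.26 (SE). No other protein-coding gene overlapped GFRA3 or RET there.

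Because these receptors are known in nerve, markers of nerve and of the tissue's other cells were read beside them. Of 16 matched neuron markers 8 were tested, and PHOX2A, CHAT and NEFL had 0 reads in all libraries, with VIP and NPY at 1 read or fewer in any library. DBH, the noradrenaline-making enzyme, had 25.8 and 47.4 normalized reads in LF/LCL cows and 5.20, 0 and 7.51 in SF/SCL cows (limma adjusted p = 0.355). PRPH, a filament protein of peripheral neurons, and SYT1, a synaptic vesicle protein, were likewise higher in both LF/LCL libraries than in any of SF/SCL.

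SNAP25, a protein of vesicle fusion, went the other way, with 42.2 and 31.0 normalized reads in LF/LCL cows and 108.1, 172.5 and 166.3 in SF/SCL cows (limma adjusted p = 0.193, DESeq2 adjusted p = 7.87e-05). DBH, PRPH and SYT1 were thus separated between groups in the direction of RET, and SNAP25 in that of GFRA3. These 4 genes, of 8 tested neuron markers, were named after their values were seen, for lack of overlap (30.1% of all genes tested lacked it). The summed neuron markers ran from 808.0 to 887.6 normalized reads in LF/LCL and from 774.1 to 975.2 in SF/SCL, most of it from TUBB3 (561.6 ± 69.5 and 607.1 ± 162.0), and did not separate the groups.

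Of 11 Schwann cell and glia markers 10 were tested, with a summed level from 33578 to 40810 in LF/LCL and from 15471 to 24982 in SF/SCL, most of it from S100B, a calcium-binding protein with 31911 ± 5680 and 14575 ± 5149 normalized reads (limma adjusted p = 0.306, DESeq2 adjusted p = 0.0173). This sum did not overlap between groups and was higher in LF/LCL, as RET was, and its part in the RET result was not tested. Without overlap were 4 of the 10 tested markers with LF/LCL above and 1 with SF/SCL above, against 15% and 15.1% of all genes tested. The 1 with SF/SCL above was GFAP, an intermediate filament of glia, named after its values were seen. It had 14.1 and 5.81 normalized reads in LF/LCL cows and 90.5, 19.4 and 140.6 in SF/SCL cows (limma adjusted p = 0.37, DESeq2 adjusted p = 0.0295). SOX10, which marks glia more strictly, had 14.1 and 23.2 normalized reads in LF/LCL cows and 10.4, 3.11 and 23.6 in SF/SCL cows, and overlapped. The sums of the sensory neuron markers (329.1 to 378.8 in LF/LCL cows and 215.3 to 746.9 in SF/SCL cows) and of the endocrine cell markers (711.4 to 980.4 and 849.4 to 1127) overlapped between groups, and SCN9A, a sodium channel, and CPE, a peptide processing enzyme, were their most read genes. Of the endocrine markers NEUROD1 had 0 reads in each library.

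Smooth muscle and ciliated cell markers separated the groups in opposite directions. All 8 matched smooth muscle markers were higher in LF/LCL, all at an unadjusted p under 0.05 by limma (11.5% of all genes were). Their median log2 fold change was 1.54, with a summed level of 55039 to 109416 against 13929 to 37134 normalized reads. ACTA2, smooth muscle actin, had 21937 ± 8775 in LF/LCL cows and 7577 ± 4014 in SF/SCL cows. All 11 tested ciliated markers were lower in LF/LCL, with a median of -0.45 and sums of 45942 to 58205 against 68610 to 69411. Of them 7 had an unadjusted p under 0.05 by limma. CAPS, the most read, overlapped between groups. Without overlap were 8 of 8 smooth muscle markers with LF/LCL above (15% of all genes tested) and 8 of 11 ciliated markers with SF/SCL above (15.1%). Of all 15815 genes tested, 8032 were higher and 7783 lower in LF/LCL. The smallest DESeq2 adjusted p was 0.0027 (DES) among the smooth muscle and 0.00281 (ARMC3) among the ciliated markers, both named after their values were seen.

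These markers therefore moved with RET and GFRA3 across the same groups, and their part in either result was not tested. Within SF/SCL the smooth muscle sum was 32845 in replicate 1, 37134 in replicate 2 and 13929 in replicate 3, and RET was likewise highest in replicate 2 and lowest in replicate 3. Within LF/LCL the order was opposite, with the smooth muscle sum highest in replicate 1 and RET highest in replicate 2. The 3 ciliated sums of SF/SCL ran from 68610 to 69411, and GFRA3 from 142.4 to 305.4. These orders within groups were not tested.

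The secretory, stromal fibroblast, endothelial and immune sums overlapped, at 133728 to 151093 against 138414 to 162116, 32292 to 80306 against 21091 to 46480, 3590 to 5872 against 4637 to 7074, and 2451 to 3267 against 1534 to 2671 normalized reads. Single markers were without overlap within these lists, with LF/LCL above in 3 of 7 secretory, 1 of 8 stromal and 6 of 10 immune markers. With SF/SCL above were 1 of 7 endothelial and 1 of 10 immune markers. Over all genes tested, 15% were without overlap with LF/LCL above and 15.1% with SF/SCL above. Of the 10 immune markers 4 had an unadjusted p under 0.05 by limma (11.5% of all genes did), all higher in LF/LCL as RET was. IL2RG, a cytokine receptor chain of lymphocytes named after its values were seen, had 176.8 ± 19.6 normalized reads in LF/LCL cows and 82.2 ± 9.51 in SF/SCL cows (limma adjusted p = 0.248, DESeq2 adjusted p = 0.00747). The part of these markers in the RET result was not tested. The stromal fibroblast list was led by DCN, the endothelial list by KDR and the immune list by CSF1R. The mesothelial sum was 7014 to 8069 in LF/LCL cows and 8142 to 9107 in SF/SCL cows, with WT1 its most read gene. The sum was higher in SF/SCL, as GFRA3 was, but by a narrow margin, 8142 in the lowest SF/SCL library against 8069 in the highest of LF/LCL. WT1 itself overlapped between groups, with 6806 ± 19.3 normalized reads in LF/LCL cows and 6978 ± 343.8 in SF/SCL cows. The part of the mesothelial list in the GFRA3 result was not tested. Of its genes 1 was without overlap, UPK1B, a uroplakin named after its values were seen, with 241.9 ± 209.5 normalized reads in LF/LCL cows and 997.7 ± 332.0 in SF/SCL cows (limma adjusted p = 0.313, DESeq2 adjusted p = 0.0155). Blood markers were low, from 65.8 to 506.6 in LF/LCL and from 16.1 to 233.9 in SF/SCL, mostly HBA.

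**Figure D5:**
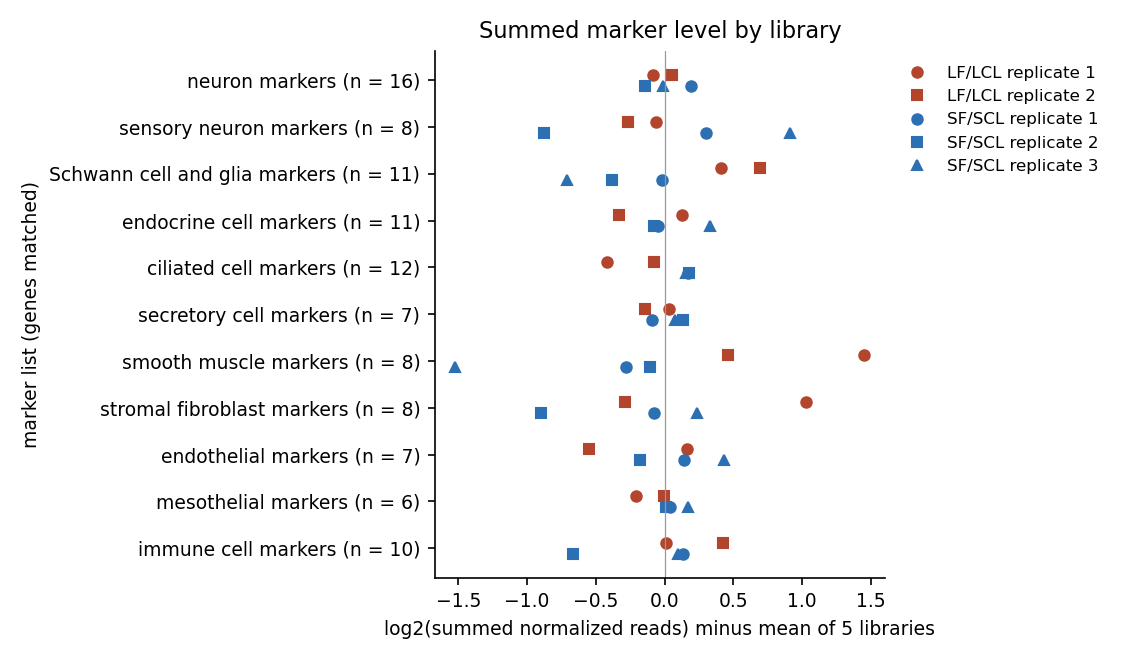
Summed normalized reads of each marker list, as log2 minus its mean over the 5 libraries (horizontal axis), with 1 symbol per library, LF/LCL in red and SF/SCL in blue. Smooth muscle markers lie higher in both LF/LCL libraries, ciliated cell markers higher in all 3 SF/SCL libraries, and neuron and endocrine cell markers overlap.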

How the data were processed

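RNA-seq of the ampulla of 5 Nelore cows was used, 2 in LF/LCL and 3 in SF/SCL by their titles. The authors made TruSeq polyA libraries, sequenced read pairs, trimmed them with seqyClean, and aligned them with TopHat 2.0.8 and Bowtie2 2.1.0 to the masked UMD cattle assembly. They counted uniquely mapped, unambiguous reads with HTSeq 0.5.4p2 (strand setting not given in the sources used here). The deposited values are a normalized signal, reads divided by the size factor of DESeq 1.12.1. One LF/LCL library dropped by the authors was not analysed here. Reads of close gene copies can be lost, and overlapping or antisense genes cannot be told apart.

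Values were whole multiples of 1 step per library, and whole reads came back for 100% of nonzero values (within 0.05 reads). The library totals set the precision of members with few reads.

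The test was limma 3.58.1 on log2(value + 1), with trend and robust estimation, for 15815 genes with a mean over 5, two-sided, with Benjamini-Hochberg adjustment over all of them. A fold change on this scale understates low genes. The edgeR 4.0.16 quasi-likelihood and exact tests and DESeq2 1.42.0 on the recovered reads, other pseudocounts, filters and scalings, and leaving out each library were alternatives. The fits were tested on simulated data.

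Named genes are the members, the 3 smallest p per pathway list, the 6 profiles nearest to GFRA3 and the most read marker of each list. A few genes of these lists are not reported here. Members and lists were chosen with earlier results of these data known. List genes were matched by symbol, and those without a match (such as GAB2, SIX4, CALCA) were left out. No gene length was at hand, so shares and ratios of reads between genes are compared only across libraries.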

Additional observations from a re-analysis of the deposited data

How the results depend on the processing

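The count of 0 tested members with an adjusted p under 0.05 (GFRA3 set aside) was also 0 under each alternative, including leaving out each library. For all genes, 0 became 457 with DESeq2 and 335 with the edgeR exact test, and stayed at 0 elsewhere. Among the pathway and comparison lists, the genes called with DESeq2 were 2 of the response list, 1 of the regulator list and 1 of the neurotrophin list, and with the exact test 2 of the response list and 1 of the neurotrophin list; the cause was not tested. The GFRA3 share of co-receptor reads ran from 1.96 to 13.7% in LF/LCL and from 57.9 to 64.5% in SF/SCL when 1 library was left out. The sign reversed for GFRA1 (-0.119 without LF/LCL replicate 1) and GFRA4 (0.133 without LF/LCL replicate 2, 0.146 without SF/SCL replicate 3), and with no other setting for any tested member. The values of GFRA1 otherwise reached 1.21 (without LF/LCL replicate 2) and those of GFRA4 -0.33 (without LF/LCL replicate 1). In the fits without an LF/LCL library, the lone library left is assumed to vary like SF/SCL. No paired analysis was made, as each library came from a different cow. The share per transcript length was not run, for lack of lengths. Few reads limit ARTN, GDNF, GFRA1 and GFRA3 in LF/LCL.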
